A study of Mus musculus with 6 samples.

Results

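The 10 chemokine genes Cxcl1, Cxcl2, Cxcl5, Cxcl12, Cxcl14, Cxcl16, Ccl20, Ccl25, Ccl28 and Cx3cl1 were followed in serrated polyps and in the cecum around them. They were chosen by name, because the mice carry a viral chemokine receptor, and with earlier results of these data known. Each matched 1 of the 37991 gene identifiers in the count tables. Of the 10, 5 had enough counts to be tested among 10960 genes (Cxcl2, Cxcl12, Cxcl14, Cxcl16 and Cx3cl1). Counts for Cxcl1, Cxcl5, Ccl20 and Ccl25 did not pass the filter on low counts, and Ccl28 was listed at 0 in all 6 libraries.

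The libraries came from 3 HBUS mice (mice 1119, 1192 and 1199), taken after 60 weeks, each giving 1 polyp and 1 piece of normal distal cecum beside it. As background on the strain, HBUS animals express the growth factor HB-EGF and US28, a chemokine receptor encoded by human cytomegalovirus, from promoters active in intestinal epithelium. Both tissues of every animal carry both transgenes, so the comparison is between lesion and surroundings within transgenic mice, and mice without the transgenes were not analysed here. Total counts ran from 6632645 to 13350119 a library, of which 2 mitochondrial rRNA genes took 46.4% to 75.3%. The polyp of mouse 1192 and the surrounding tissue of mouse 1199 stood apart in normalization, with factors of 1.43 and 0.594 against 0.972 to 1.08 in the other libraries. Epithelial genes of the large bowel such as Vil1, Cdx2 and Muc2 had counts in all 6 libraries. Each level is a CPM value, a count divided by its library's size with a correction for composition, listed in the order mouse 1119, 1192, 1199. A gene is called changed when edgeR's quasi-likelihood test, fitted with a block for the animal, gave an adjusted p under 0.05. Positive log2 fold changes are higher in the polyp.

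Chemokines are small secreted proteins that steer leukocytes and other cells along gradients through G protein-coupled receptors. They are bound and held in tissue by heparan sulfate, and atypical receptors remove them. In the gut, Cxcl1, Cxcl2 and Cxcl5 attract neutrophils through Cxcr2, Ccl20 draws Ccr6-bearing lymphocytes and dendritic cells, and Ccl25 and Ccl28 are known as homing signals for lymphocytes with Ccr9 and Ccr10. Cxcl12 signals through Cxcr4 and is scavenged by Ackr3. Cxcl16 and Cx3cl1 differ from the rest in being made as membrane-bound proteins, for Cxcr6 and Cx3cr1, and are released by the proteases Adam10 and Adam17. Cxcl14 is a chemokine of epithelia and fibroblasts. US28 is known to bind Cx3cl1 and several CC chemokines, among them the products of Ccl2, Ccl3, Ccl4 and Ccl5.

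In polyps, Cxcl14 and Cxcl16 rose and the 3 other tested members did not pass. These 2 of 5 tested members stand against 1.72% of all tested genes that were called higher in polyps, and 2.76% called in either direction. The same members had all 3 polyp libraries above all 3 surrounding libraries, as did 9.84% of tested genes. The members were chosen with earlier results of these data known, so these shares are no test of the list. Over the 5 tested members alone the median log2 fold change was 1.26, the value of Cxcl16, beside -0.02 over all tested genes. Cxcl2, among those 5, had 17 counts in surrounding tissue and 111 in polyps, so its passing of the filter rested largely on polyps. All 6 samples were whole tissue, in which more cells of a type and more RNA per cell cannot be told apart.

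**Figure D1:**
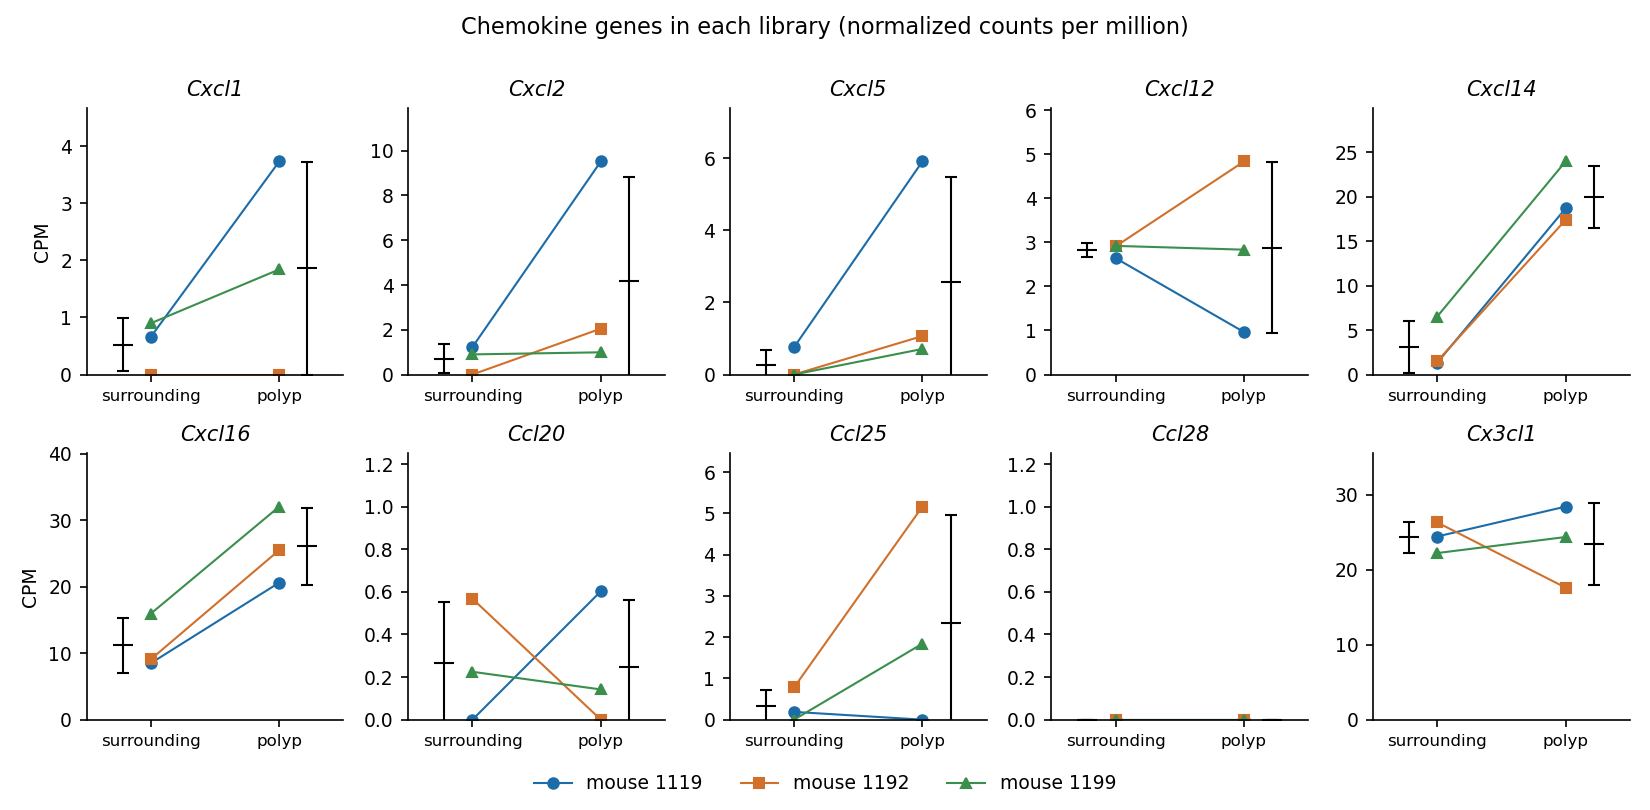
Normalized CPM (vertical axes, each from 0 with its own scale) of the 10 chemokine genes in surrounding cecum and polyp; each line joins the 2 samples of 1 mouse, and black marks are the mean ± SD of 3 mice, drawn down to 0 where the SD is larger than the mean. Cxcl14 and Cxcl16 rise along all 3 lines, Cx3cl1 and Cxcl12 do not move together, and Ccl28 lies at 0.

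Cxcl14 (ENSMUSG00000021508) had the largest log2 fold change of the tested members. Surrounding tissue held 1.32, 1.49 and 6.52 CPM (14, 21 and 29 counts), and polyps held 18.7, 17.4 and 24.0 CPM (155, 212 and 169 counts). All 3 polyps were at least 17.4 CPM, and the surrounding tissue of mouse 1199 was the highest of its group. The means were 3.11 ± 2.95 and 20.0 ± 3.48 CPM (SD, n = 3), with a log2 fold change of 3.04 ± 0.43 (standard error, edgeR, adjusted p = 0.0138), an 8.24-fold rise. Within mice 1119, 1192 and 1199 the polyp was 14.1-fold, 11.7-fold and 3.68-fold higher. Cxcl14 was called under all 13 processing alternatives, with log2 fold changes of 2.69 to 3.65 and adjusted p between 4.15e-14 and 0.0489.

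Cxcl16 (ENSMUSG00000018920), the membrane-bound ligand of Cxcr6, rose by less from a higher level. Its values were 8.50, 9.09 and 15.9 CPM in surrounding tissue and 20.6, 25.5 and 32.0 CPM in polyps. The lowest polyp was above the highest surrounding sample, and mouse 1199 was highest in both tissues. Means of 11.2 ± 4.15 and 26.1 ± 5.74 CPM (SD, n = 3) gave a log2 fold change of 1.26 ± 0.23 (edgeR, adjusted p = 0.0262), or 2.40-fold. The folds in mice 1119, 1192 and 1199 were 2.42, 2.81 and 2.01. The call did not hold when any 1 mouse was left out (adjusted p = 0.116, 0.0524 and 0.163 without mouse 1119, 1192 and 1199) or without the pairing (adjusted p = 0.0972), against a range of 0.000152 to 0.163 over the 13 alternatives. In the annotation used here Zmynd15 overlaps Cxcl16 on the other strand. The proteases that release Cxcl16 did not pass, with log2 fold changes of 0.32 ± 0.16 for Adam10 and 0.26 ± 0.18 for Adam17 (edgeR, adjusted p = 0.43 and 0.592).

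Cx3cl1 (ENSMUSG00000031778), also called fractalkine and the member that US28 binds, had the highest level per length of these chemokines in surrounding tissue, and its means were 24.3 ± 2.05 CPM there and 23.5 ± 5.46 CPM in polyps (SD, n = 3). Surrounding tissue gave 24.5, 26.3 and 22.2 CPM, and polyps 28.4, 17.6 and 24.4 CPM. The groups overlapped: the polyp was higher than its surroundings in mice 1119 and 1199 and lower in mouse 1192. The log2 fold change was -0.08 ± 0.23, with a 95% interval of -0.60 to 0.43 (edgeR, adjusted p = 0.906). Its direction was positive without mouse 1192, at 0.14.

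Cxcl12 (ENSMUSG00000061353), the ligand of Cxcr4 and Ackr3, had 2.64, 2.91 and 2.92 CPM in surrounding tissue, a narrow range. Polyps had 0.964, 4.84 and 2.84 CPM, from the lowest value of the 6 in mouse 1119 to the highest in mouse 1192. The log2 fold change was -0.19 ± 0.67, with a 95% interval of -1.72 to 1.33 (adjusted p = 0.926), so neither a rise nor a fall of up to 2-fold could be told from no change.

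**Figure D2:**
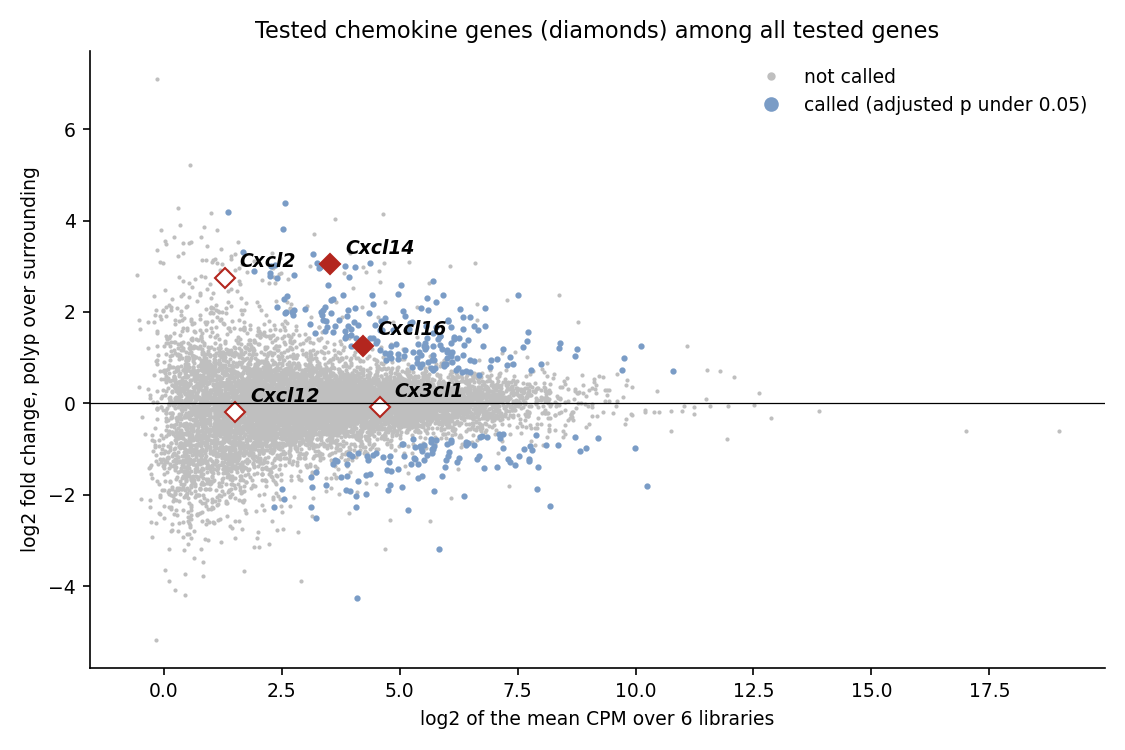
Log2 fold change of polyp over surrounding tissue (vertical axis) against the log2 of the mean CPM over 6 libraries (horizontal axis) for 10960 tested genes, with called genes in blue and the 5 tested chemokines as diamonds, filled where called. Cxcl14 and Cxcl16 lie among the called genes, Cxcl2 lies as high as called genes but at a lower mean level, and Cx3cl1 and Cxcl12 lie near 0.

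The ligands of Cxcr2 were scarce in surrounding tissue and were highest in the polyp of mouse 1119. Cxcl2 (ENSMUSG00000058427) had 1.23, 0 and 0.899 CPM in surrounding tissue (13, 0 and 4 counts) and 9.52, 2.05 and 0.992 CPM in polyps (79, 25 and 7 counts). In mouse 1199 the tissues differed little, and the polyp of that mouse lay below the surrounding tissue of mouse 1119. Its log2 fold change of 2.75 ± 1.14 did not pass (95% interval 0.15 to 5.35, edgeR, adjusted p = 0.311), and was 2.00 without mouse 1192 and 3.94 without mouse 1199. Cxcl1 (ENSMUSG00000029380) had 7, 0 and 4 counts in surrounding tissue and 31, 0 and 13 in polyps. Cxcl5 (ENSMUSG00000029371) had 8, 0 and 0 counts in surrounding tissue and 49, 13 and 5 in polyps, so 3 polyps were above their own surroundings while the groups overlapped. Tested without the filter on low counts, Cxcl5 and Cxcl1 gave 4.00 ± 1.51 and 1.65 ± 1.64 on the log2 scale (edgeR, adjusted p = 0.165 and 0.914). Cxcl3, a relative of these genes outside the 10, had 0, 0 and 1 counts in surrounding tissue and 16, 6 and 4 in polyps. These genes are related copies that lie close together, and reads shared between them could not be followed in the counts.

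Cxcl1 and Cxcl2 start 12654 bases apart on mouse chromosome 5 (RefSeq, GRCm38.p6), and their upstream sequences are shown with that of Cxcl14 because Cxcl1 and Cxcl2 varied between polyps while Cxcl14 was higher in the polyp of each mouse. Of the 10 members, 8 have an upstream sequence in the RefSeq table used. The windows run from 250 to 51 bases before the RefSeq start, at chr5:90890995-90891194 (plus strand), chr5:90903649-90903848 (plus strand) and chr13:56296602-56296801 (minus strand). Capitals mark GGNNTTTCC on either strand, a pattern of the kind bound by NF-kB, which was chosen after these sequences were read.
Cxcl1: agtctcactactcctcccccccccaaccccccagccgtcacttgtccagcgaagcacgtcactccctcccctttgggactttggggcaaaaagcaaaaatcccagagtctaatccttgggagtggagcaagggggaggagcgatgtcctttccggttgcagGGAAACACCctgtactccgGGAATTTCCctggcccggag
Cxcl2: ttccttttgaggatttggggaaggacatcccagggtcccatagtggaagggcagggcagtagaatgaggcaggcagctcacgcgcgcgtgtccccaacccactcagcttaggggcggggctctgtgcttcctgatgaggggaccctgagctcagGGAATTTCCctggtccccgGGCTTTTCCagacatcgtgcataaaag
Cxcl14: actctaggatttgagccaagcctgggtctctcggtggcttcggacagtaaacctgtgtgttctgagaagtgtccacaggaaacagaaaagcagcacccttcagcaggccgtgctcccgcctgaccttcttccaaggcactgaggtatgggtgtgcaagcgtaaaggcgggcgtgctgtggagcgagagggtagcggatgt

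The Cxcl1 and Cxcl2 windows each held 2 matches to GGNNTTTCC, the Ccl20 window held 1, and those of Cxcl12, Cxcl14, Ccl25, Ccl28 and Cx3cl1 held 0. Over all 32851 windows of this length, 3.88% held a match. The longest run shared by the Cxcl1 and Cxcl2 windows, GGGAATTTCCCTGG of 14 bases, began 71 bases before the start of Cxcl1 and 97 bases before that of Cxcl2. TTCNNNGAA, a pattern of the kind bound by STAT factors that reads the same on both strands, occurred once in the Cxcl14 window, 191 to 183 bases before the start, and in 5.76% of all windows. TGANTCA, a pattern of the AP-1 kind, was found in 0 of the members' windows and in 5.57% of all windows. These are matches of letters, and no binding was measured.

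Ccl20 (ENSMUSG00000026166), the ligand of Ccr6, was near the detection floor in both tissues. It had 0, 8 and 1 counts in surrounding tissue and 5, 0 and 1 in polyps, with no shared direction, where 3 counts correspond to 0.213 to 0.674 CPM depending on the library. That floor covers counting error only. Ccl25 (ENSMUSG00000023235), the ligand of Ccr9, had 2, 11 and 0 counts in surrounding tissue and 0, 63 and 13 in polyps. The polyp of mouse 1192 alone reached 5.17 CPM, and mouse 1119 went the other way. Without the filter on low counts the log2 fold change of Ccl25 was 2.16 ± 1.54 (edgeR, adjusted p = 0.91), and without mouse 1119 it was 3.37 ± 1.37 (adjusted p = 0.388). Elavl1 overlaps Ccl25 on the other strand, and it is not stated whether the libraries kept strand. Ccl28 (ENSMUSG00000074715), known as a chemokine of colon epithelium, had 0 counts in every library, and no other gene overlaps it in the annotation used. The floor of 3 counts allows up to 0.674 CPM in the library with the highest floor. Whether reads from this locus could be counted was not tested.

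Per kilobase of annotated exon, the order of the mean levels was not the same in both tissues. In surrounding tissue Cx3cl1 came first at 6.19 ± 0.521 CPM per kb, then Cxcl16 at 3.70 ± 1.37 and Cxcl14 at 1.70 ± 1.62 (SD, n = 3). Cxcl16 and Cxcl14 lay within the sum of their SDs, and the remaining 7 members were at or below 0.346 CPM per kb. In polyps Cxcl14 came first at 10.9 ± 1.91 CPM per kb, then Cxcl16 at 8.62 ± 1.90 and Cx3cl1 at 5.98 ± 1.39. There Cxcl14 and Cxcl16 lay within the sum of their SDs, as did Cxcl16 and Cx3cl1. Cxcl2 followed at 2.02 ± 2.25 and Cxcl5 at 1.37 ± 1.56 CPM per kb, both with an SD above the mean. Cxcl1 had 0.992, Cxcl12 0.352, Ccl25 0.314 and Ccl20 0.175 CPM per kb. With the median length of coding transcripts in place of all exons, Cx3cl1 came first in both tissues, so its place in polyps rests on the length used. That median was only 0.47 kb for Cx3cl1, against 3.93 kb of exon. Which length fits the RNA counted was not tested.

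The receptors of these chemokines had few counts, and 0 of 6 tested chemokine receptors and 0 of 2 tested atypical receptors were called by edgeR. At an unadjusted p under 0.05, which 1597 of all 10960 tested genes had, there was 1 of each, and DESeq2 and limma-voom called 0. Both were receptors of Cxcl12. Cxcr4 had 0.850, 0.781 and 2.02 CPM in surrounding tissue and 8.68, 3.44 and 4.39 CPM in polyps, without overlap of the groups. These were 9, 11 and 9 counts, and 72, 42 and 31 counts, so Cxcr4 passed the filter through its polyps. Its log2 fold change was 2.20 ± 0.65 (edgeR, adjusted p = 0.14), and it passed in 1 alternative, the one with no filter on low counts (adjusted p = 0.0493, in a range of 0.0493 to 0.607). Ackr3, the scavenging receptor, had 0.283, 0 and 0.674 CPM in surrounding tissue and 3.01, 3.03 and 1.98 CPM in polyps, again without overlap. These were 3, 0 and 3 counts, at or under the floor, and 25, 37 and 14 counts, so Ackr3 passed the filter through its polyps. Its log2 fold change was 3.54 ± 1.33 (edgeR, adjusted p = 0.255). Polyps all above the surrounding samples, as for Cxcr4 and Ackr3, were seen in 9.84% of tested genes. The means of their ligand Cxcl12, by contrast in values alone, were 2.83 ± 0.157 and 2.88 ± 1.94 CPM.

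**Figure D3:**
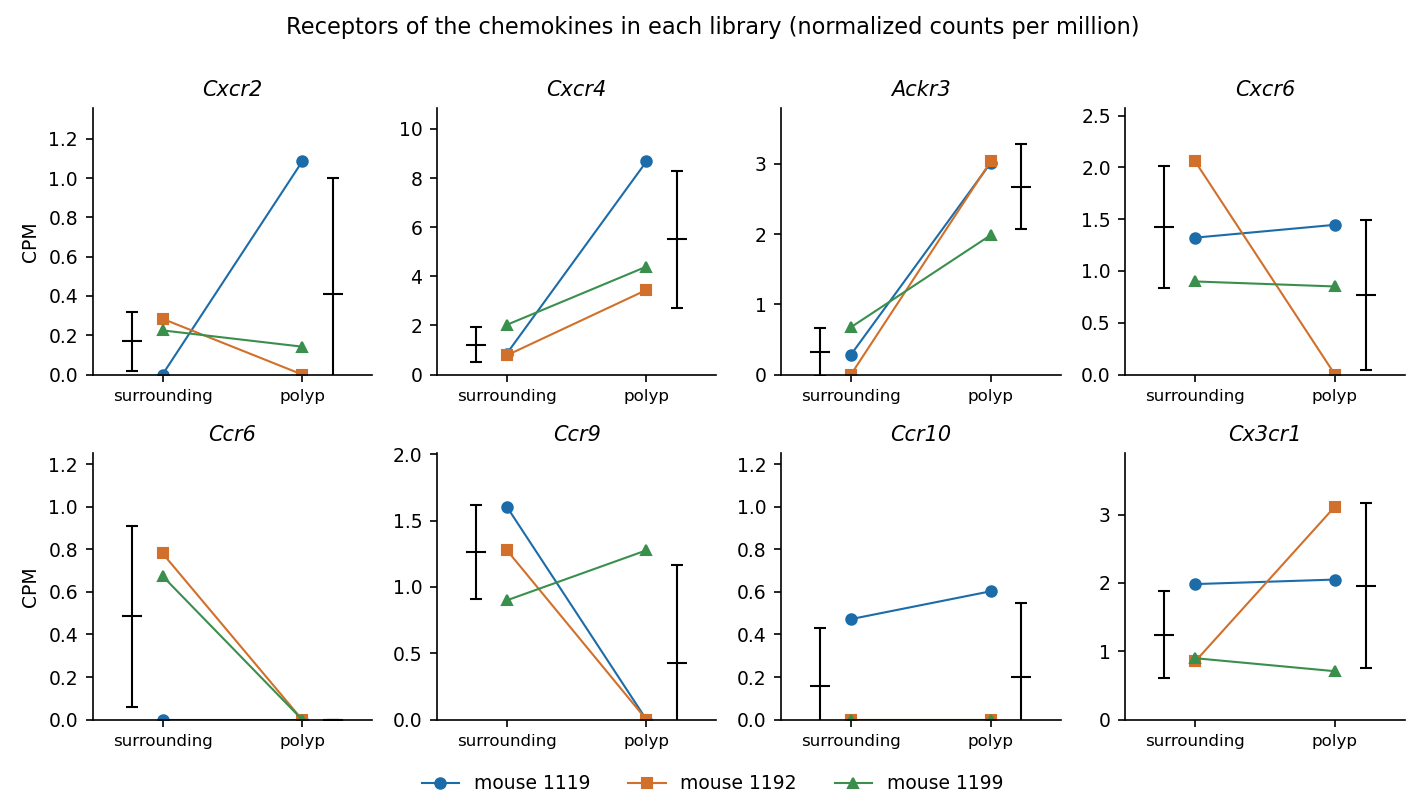
Normalized CPM (vertical axes, each from 0 with its own scale) of 8 receptors of the chemokines in surrounding cecum and polyp, with lines joining the 2 samples of 1 mouse and black marks for the mean ± SD of 3 mice, drawn down to 0 where the SD is larger than the mean. Cxcr4 and Ackr3 lie higher in all 3 polyps, while the tissues overlap for the remaining 6.

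The receptors of the other ligands did not pass or were not tested. Cxcr2, the receptor of Cxcl1, Cxcl2 and Cxcl5, had 0, 4 and 1 counts in surrounding tissue and 9, 0 and 1 in polyps. Cxcr6, the receptor of Cxcl16, had 14, 29 and 4 counts and then 12, 0 and 6, with a log2 fold change of -1.33 ± 1.53 (edgeR, adjusted p = 0.756). Cx3cr1 had 21, 12 and 4 counts in surrounding tissue and 17, 38 and 5 in polyps (log2 fold change 0.58 ± 0.95, adjusted p = 0.834). Ccr9 had 17, 18 and 4 counts in surrounding tissue and 0, 0 and 9 in polyps (log2 fold change -2.94 ± 1.87, adjusted p = 0.551). Ccr6 had 0, 11 and 3 counts in surrounding tissue and 0 in each polyp, and Ccr10 had 5, 0 and 0 counts in each tissue. Ccr1, a receptor of inflammatory CC chemokines, and the scavenging receptor Ackr4 did not pass, at -0.89 ± 0.45 and -0.53 ± 0.73 on the log2 scale.

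Of 27 other chemokine genes looked up, 26 matched an identifier, 3 were tested and 0 were called by edgeR, with 0 at an unadjusted p under 0.05 and 0 by DESeq2 or limma-voom. The 3 were Ccl6, Cxcl9 and Ccl9, with log2 fold changes of 0.67 ± 0.57, 0.85 ± 1.41 and -0.50 ± 0.90. The CC chemokines known as ligands of US28 were at low counts. Ccl2 had 0 counts in all surrounding samples and 5, 0 and 1 in polyps. Ccl3 had 0, 0 and 6 counts in surrounding tissue and 15, 0 and 6 in polyps, and Ccl4 had 1, 0 and 1, then 8, 0 and 6. Ccl5, a chemokine of activated T cells, had 19, 10 and 11 counts in surrounding tissue and 5, 1 and 2 in polyps, or 1.79, 0.710 and 2.47 CPM against 0.603, 0.0820 and 0.283 CPM. The counts of Ccl5 were too low for the test.

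**Figure D4:**
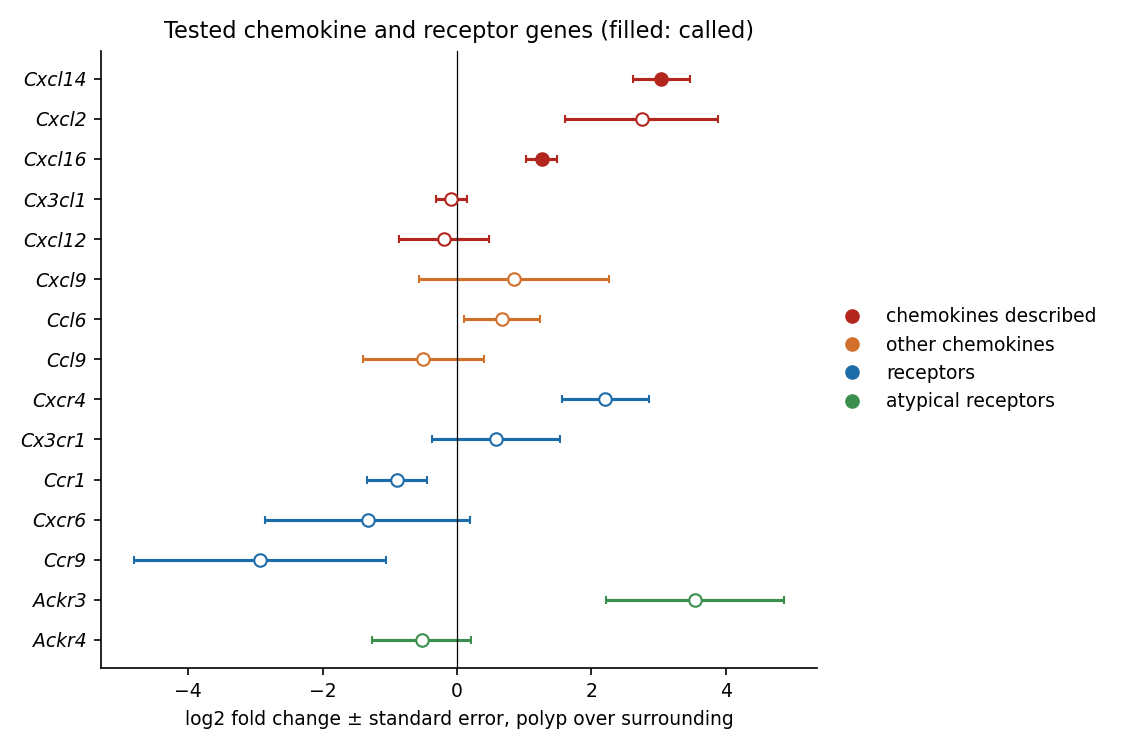
Log2 fold change ± standard error of polyp over surrounding tissue (horizontal axis) for the tested chemokine and receptor genes that are described (vertical axis), coloured by group and filled where called. Cxcl14 and Cxcl16 are the filled points, and Cxcl2, Cxcr4 and Ackr3 are the open points whose error bars lie farthest to the right.

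Few genes that release, hold or induce chemokines passed the test. Among proteases and inhibitors that cleave or shed chemokines, 1 of 9 tested genes rose, the gelatinase gene Mmp2 (log2 fold change 2.35 ± 0.40, edgeR, adjusted p = 0.0233), which can cleave Cxcl12. Its call was lost without mouse 1119 or 1199 and without the pairing (adjusted p = 0.128, 0.187 and 0.194, in a range of 7.71e-05 to 0.194). Mmp9 and Mmp12 had log2 fold changes of 1.89 ± 0.44 and 4.17 ± 1.02 without passing (edgeR, adjusted p = 0.0669 and 0.0806). Mmp12 was at or under the floor in surrounding tissue, with 3, 3 and 0 counts, and had 67, 23 and 11 in polyps. Of the heparan sulfate genes, 1 of 13 tested rose, the sulfotransferase gene Hs3st1 (log2 fold change 2.11 ± 0.45, adjusted p = 0.0475, in a range of 0.00231 to 0.212). It was not called with any 1 mouse left out. The medians of these lists were 0.32 and 0.11.

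Of 16 tested NF-kB pathway genes, which include inducers of Cxcl1, Cxcl2 and Ccl20, 0 were called by edgeR, DESeq2 or limma-voom. At an unadjusted p under 0.05 there was 1, beside 1597 of all 10960 tested genes. The list's median log2 fold change was 0.20. Birc3, Icam1, Tnfaip3 and Chuk had the smallest p, with log2 fold changes of 0.53 ± 0.22, 3.21 ± 1.51, 0.47 ± 0.24 and 0.28 ± 0.15. Icam1 had only 6, 0 and 1 counts in surrounding tissue and 13, 47 and 8 in polyps. In the IL-17 signalling and target list 0 of 9 tested genes were called by edgeR, 1 had an unadjusted p under 0.05, and DESeq2 and limma-voom called 0 and 1. Il17rc, Zc3h12a, Reg3b and Traf6 had log2 fold changes of -0.72 ± 0.31, 0.82 ± 0.40, 4.14 ± 2.19 and -0.39 ± 0.26. Reg3b, an antimicrobial lectin gene, was split between mice, with 33, 1 and 7 counts in surrounding tissue and 13, 469 and 739 in polyps. Without mouse 1119, 3 genes of the list were called, Nos2, Reg3b and Reg3g. For TNF and interleukin-1 genes, 0 of 7 tested were called by edgeR, 1 had an unadjusted p under 0.05, and DESeq2 and limma-voom called 1 and 0. That gene, the cytokine gene Il1b, had 4.44, 0.213 and 2.92 CPM in surrounding tissue and 18.8, 7.13 and 3.26 CPM in polyps (log2 fold change 2.22 ± 0.77, adjusted p = 0.223). Like Cxcl2, it was highest in the polyp of mouse 1119 and differed least in mouse 1199. The receptor genes Tnfrsf1b, Il1r1 and Tnfrsf1a had log2 fold changes of 0.51, 0.42 and 0.28.

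Markers of cells that make or answer chemokines differed beside these genes, and their part in the results was not tested. The 10 fibroblast markers summed to 77.2 to 157 CPM in surrounding tissue and 230.4 to 559.6 CPM in polyps, and 4 of 10 tested rose: Col3a1 (log2 fold change 2.08), Col1a2 (2.08), Col1a1 (2.31) and Pdgfra (1.59). Epithelial markers summed to 5076 to 7613 CPM and 7199 to 9102 CPM, and 3 of 10 rose, all keratin genes: Krt18 by 1.57, Krt19 by 0.73 and Krt8 by 0.71 on the log2 scale. Smooth muscle markers summed to 268 to 286 CPM and 70.3 to 149 CPM, and 2 of 9 fell, Tagln and Synpo2 (log2 fold changes of -2.28 and -1.58). Over all 10960 tested genes, 189 were called higher and 114 lower. Of the 12 genes called in the pathway and marker lists, 4 were called with each mouse left out in turn, Col1a1, Col1a2, Col3a1 and Krt18. Endothelial markers summed to 11.5 to 20.2 CPM and 18.3 to 48.6 CPM. In that list edgeR, DESeq2 and limma-voom called 0 of 7, and 3 had an unadjusted p under 0.05, beside 1597 of all 10960 tested genes. Vwf, Eng, Cdh5 and Tie1 had log2 fold changes of 1.08, 1.50, 1.99 and 2.71. Cdh5 had 10, 6 and 7 counts in surrounding tissue and 44, 25 and 26 in polyps. Tie1 had 8, 0 and 4, then 18, 24 and 26, so both passed the filter through their polyps.

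Neutrophil markers summed to 0.852 to 18.2 CPM in surrounding tissue and 17.2 to 57.5 CPM in polyps, where Ly6g gave most of the sum. Of the granule genes made by neutrophil precursors, Elane had 1 count in 1 polyp, Mpo had 7 counts in 1 surrounding sample, both had 0 elsewhere, and Camp had 0 in all. Other genes of the list were higher in the polyp of mouse 1119 than beside it, with 9 and 56 counts for S100a8, 5 and 31 for Mmp8, 0 and 12 for Fpr1, 2 and 11 for Retnlg, and 1 and 25 for Csf3r. In mouse 1192 S100a8, Mmp8, Fpr1 and Retnlg had 0 counts in the polyp, and in mouse 1199 they had 8, 0, 6 and 3. Counts in surrounding tissue and polyp for Csf3r were 4 and 15 in mouse 1192 and 9 and 8 in mouse 1199. For Ly6g they were 79 and 284, 2 and 195, and 61 and 174 in mice 1119, 1192 and 1199. In this list, edgeR and limma-voom called 0 of 3 tested genes and DESeq2 called 1, with 0 at an unadjusted p under 0.05. Ly6g, Csf3r and S100a9 had log2 fold changes of 2.52, 1.82 and 0.55. S100a9 had 57 counts in the polyp of mouse 1119, where Cxcl1, Cxcl2 and Cxcl5 were highest, and 0 and 8 in the other polyps. T cell markers summed to 9.23 to 18.6 CPM in surrounding tissue and 2.29 to 5.25 CPM in polyps. These T cell genes had few counts, with 8, 5 and 4 for Cd3d and 15, 39 and 13 for Gzmb in surrounding tissue. Among 4 tested genes 0 were called by edgeR and limma-voom, and DESeq2 called 1. At an unadjusted p under 0.05 there was 1, beside 1597 of all 10960 tested genes. Gzma, Gzmb, Cd3e and Itgae had log2 fold changes of -4.20, -2.00, -1.58 and -0.61. Gzma, Gzmb and Cd3e passed the filter through surrounding tissue. Gzma had 20, 19 and 19 counts there and 0, 0 and 5 in polyps. Macrophage markers summed to 19.1 to 38.6 CPM and 33.1 to 43.0 CPM, and of 7 tested 0 were called by the 3 tools, with 1 at an unadjusted p under 0.05. Lyz2, Adgre1, C1qb and C1qa had log2 fold changes of 0.94, 2.03, 1.02 and -1.01. Adgre1 had 0, 17 and 1 counts in surrounding tissue and 11, 12 and 11 in polyps, so it passed the filter through its polyps. B cell and plasma cell markers summed to 116 to 130.3 CPM and 148 to 175 CPM, with 0 of 3 tested called by the 3 tools and 1 at an unadjusted p under 0.05, and Sdc1, Xbp1 and Jchain had log2 fold changes of 0.58, 0.41 and -0.30. In the dendritic and M cell list Anxa5 rose (1 of 3 tested), an annexin that many cell types express, while Gp2 and Batf3 were at 0 in all libraries.

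Profiles across the 6 libraries were compared by the root mean square distance of centred log2 CPM, over 5615 named genes with a mean log2 CPM of at least 3. Nearest to Cxcl14 were Anxa5, Anxa8 and Col6a3, at 0.313, 0.392 and 0.398. Each of these, like Cxcl14, was highest in surrounding tissue of mouse 1199 within its group. Anxa5, for example, had 12.3, 12.3 and 44.5 CPM in surrounding tissue and 93.3, 89.2 and 110.3 CPM in polyps. The genes were picked for closeness to Cxcl14 over these same libraries, so this likeness is no separate result. Among surrounding samples, Cxcl16 and Krt8 were also highest in mouse 1199, while Cx3cl1 was lowest there. The nearest to Cxcl16 were the intracellular chloride channel gene Clic4, the phosphatase gene Dusp1 and the annexin gene Anxa2, at 0.0476, 0.159 and 0.179. Clic4 had 16.2, 17.7 and 30.8 CPM in surrounding tissue and 37.4, 47.8 and 56.6 CPM in polyps. With 6 libraries of 3 mice, such distances describe these samples only.

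**Figure D5:**
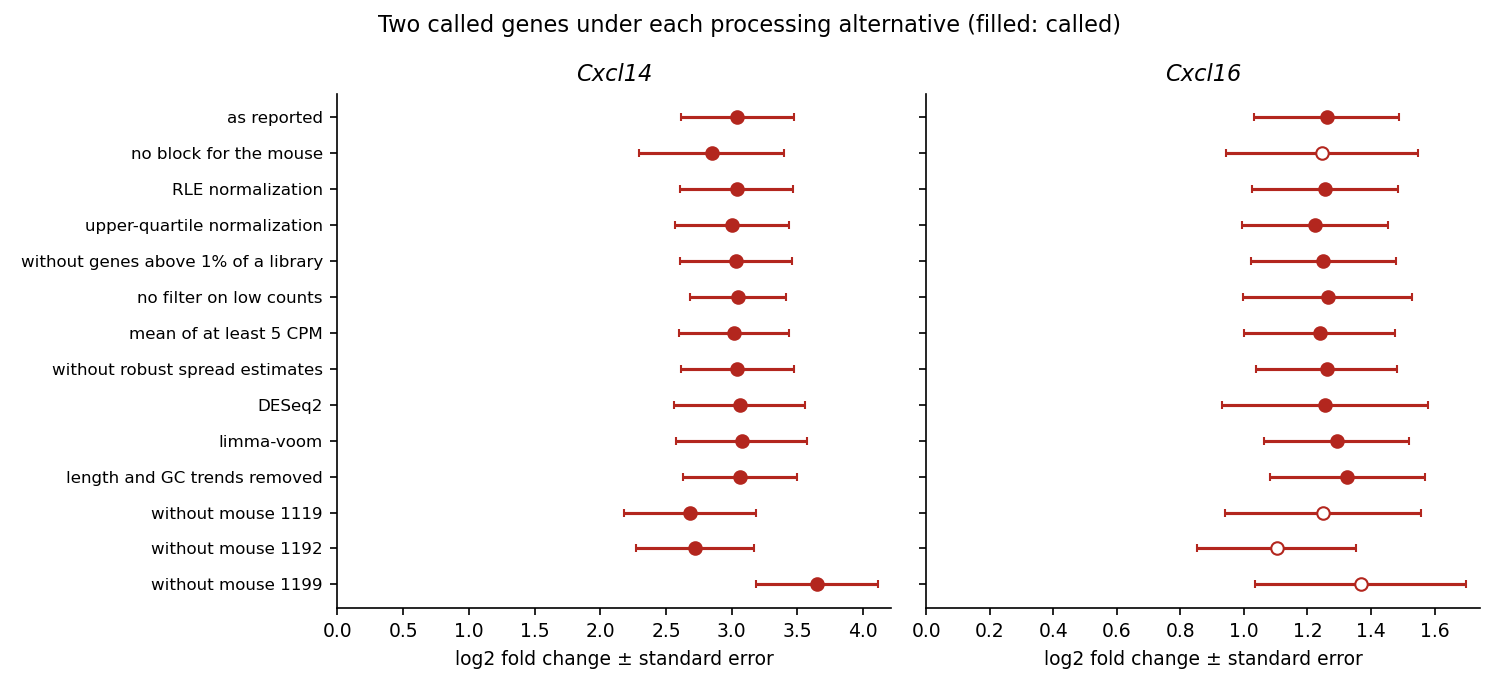
Log2 fold change ± standard error of polyp over surrounding tissue (horizontal axes, starting at 0, with different scales) for Cxcl14 and Cxcl16 as reported and under 13 processing alternatives, filled where the adjusted p was under 0.05. All 14 points for Cxcl14 are filled, and 4 points for Cxcl16 are open, those without a block for the mouse and without each mouse.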

How the data were processed

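RNA was sequenced from 6 cecal samples, 3 polyps and 3 pieces of surrounding tissue. Per the labels' protocols, mammalian RNA was depleted with MICROBEnrich, and rRNA with a second kit, before library preparation, so the mouse counts may cover only what remained. The deposited values are raw counts per Ensembl gene, 1 table a library, with no normalization by the authors per the file headers and values. The submitters' processing notes list HTSeq 0.5.3p9, TopHat2 2.0.7 and Bowtie 0.12.9. Their settings, the build and the annotation: not given in the sources used here. Symbols came from GENCODE M21 (32919 of 37991 identifiers named), as did exon lengths; upstream sequences are RefSeq, GRCm38.p6.

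Counts were tested with edgeR 4.0.16 (R 4.3.3): TMM normalization, filterByExpr (minimum count 10), robust quasi-likelihood fit, mouse number as a block, two-sided, Benjamini-Hochberg over 10960 genes. The series is described as paired and titles carry the mouse number; deviations from tissue means correlated at 0.0719, 0.127 and 0.159 within mice. Libraries within each tissue varied beyond counting noise, and none was merged. Each pair is a separate animal. Standard errors were derived from the test statistic. The procedure was tested on simulated counts. Alternatives included DESeq2 1.42.0 and limma-voom (limma 3.58.1). Figures used Python 3.11.15.

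The members and lists were chosen with earlier results of these data known. Genes named are all members, called genes of each list or, where none or more than 4 were called, the 4 with the smallest p, and the 3 nearest profiles of each called member. Further receptors and chemokines were named by their known pairing with a member or US28, and others where a call or value drew attention after it was seen. The values of 1 gene are not reported here.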

Additional observations from a re-analysis of the deposited data

How the results depend on the processing

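Cxcl14 kept its direction and its call under all 13 alternatives, and Cxcl16 kept its direction in 13 and its call in 9. Without the replicate block for the mouse, the log2 fold change of Cxcl16 was 1.247 (adjusted p = 0.0972), members called fell from 2 to 1, genes called over the whole table from 303 to 87, and called genes of the remaining lists from 12 to 4. With 1 mouse left out at a time, the log2 fold change of Cxcl16 ran from 1.10 to 1.37 with no call, members called numbered 1 each time, all genes called ran from 83 to 281, and those of the remaining lists from 6 to 15. The same range was -0.76 to 0.36 for Cxcl12 and -0.24 to 0.14 for Cx3cl1. No filter on low counts gave 753 genes, 1 receptor (Cxcr4) and 24 genes of the remaining lists, and DESeq2 gave 541 and 22. Cxcl12 changed sign without the replicate block (0.042), with limma-voom (0.26) and without mouse 1119 (0.36), and Cx3cl1 without mouse 1192 (0.14), all at adjusted p of 0.837 or above; the cause was not tested. Cxcl2 passed under 0 of 11 alternatives (adjusted p from 0.108 to 0.42). Several single genes of the pathway and marker lists crossed the threshold: Krt8 kept its call in 5 of 13 alternatives, Krt19 in 6, Hs3st1 in 8, Anxa5, Synpo2 and Mmp2 in 10 and Pdgfra in 11. Calls gained included Ly6g, Gzma and Il1b with DESeq2. Normalization moved the median of all tested genes by less than 0.1 on the log2 scale. Members with few counts set the limit here: 5 of 10 did not pass the filter on low counts, and without it 9 were tested, all but Ccl28.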
